A study of Arabidopsis thaliana with 8 samples.

Results

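Transcript levels of *DORN1* and its nearest relatives, the clade I lectin receptor kinases of *Arabidopsis thaliana*, were examined in roots before and after treatment with extracellular ATP (eATP). The 10 genes were chosen by locus identifier and not by their values, and all 10 were found among the 33544 genes of the tables. They are *DORN1* (AT5G60300, LecRK-I.9), LecRK-I.7 (AT5G60270), LecRK-I.8 (AT5G60280), LecRK-I.10 (AT5G60310) and LecRK-I.11 (AT5G60320) on chromosome 5, and LecRK-I.1 (AT3G45330), LecRK-I.2 (AT3G45390), LecRK-I.3 (AT3G45410), LecRK-I.5 (AT3G45430) and LecRK-I.6 (AT3G45440) on chromosome 3. LecRK-I.4 (AT3G45420), of the same clade, was not on the list and is described beside it.

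L-type lectin receptor kinases are plasma membrane proteins with an outer domain that resembles legume lectins, a single membrane span and an inner serine/threonine kinase. DORN1, also called P2K1, binds ATP outside the cell with high affinity and starts a calcium signal, and LecRK-I.5 was described as a further ATP receptor, P2K2. LecRK-I.8 has been described as a receptor of extracellular NAD+, a molecule released, like ATP, from damaged cells. For most of the other clade I genes no ligand is firmly known.

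The groups were wild type roots of the WS ecotype and roots of *gpa1-2*, a Gα null mutant that lacks the α-subunit of the heterotrimeric G protein, each untreated or placed for 60 min on medium with ATP. Seedlings were 4 days old per the labels. Per the labels there were 8 samples, 2 replicates of every condition, but each of the 4 conditions has 1 value per gene in the deposited tables. Hence no value has a replicate error, no test between conditions was possible, and each difference describes these libraries only. Per the labels untreated roots were taken before treatment, so effects of ATP cannot be told apart from those of transfer to new medium and of the 60 min that passed. As roots were measured in bulk, fewer cells that express a gene and less RNA per cell cannot be told apart either.

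The values are gene counts and FPKM (mapped fragments, scaled to the exon length of a gene and to the total of mapped fragments), although arrays are what the labels and the study's methods describe. Columns carry numbers as names, and their assignment to the conditions is not independent of what the tables mark as changed. Between 11769875 and 13483769 reads per condition were recovered from the deposited counts. Intervals given below are 95% intervals from these reads. They cover counting error only, and would be wider if replicates could be compared. The transcript of *GPA1* (AT2G26300), the disrupted gene, was at 51.9 FPKM in untreated and 46.5 FPKM in ATP-treated WS, and at 28.6 and 31.1 FPKM in untreated and ATP-treated *gpa1-2*. It was thus lower in the libraries labelled *gpa1-2* but not absent. All 7 root marker genes on a fixed list were at 1 FPKM or more in every condition, with a summed level of 176 to 236 FPKM. The 7 markers of shoot and leaf summed to 13.7 FPKM before and 10.9 FPKM after ATP in WS, and to 13.7 FPKM before and 3.60 FPKM after ATP in *gpa1-2*, with 1 or 2 of them at 0 in each. Their part in the results below was not tested.

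*DORN1* was the most abundant clade I transcript in roots of every condition. In WS its level was 49.2 FPKM before and 25.6 FPKM after ATP. In *gpa1-2* it was 39.4 FPKM before and 35.4 FPKM after ATP. The highest level was that of untreated WS and the lowest that of ATP-treated WS, with both *gpa1-2* libraries between them. *DORN1* alone made up 57.3%, 55.7%, 51.8% and 53.5% of the summed FPKM of the 10 genes in these conditions.

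LecRK-I.7 and LecRK-I.8, the neighbours of *DORN1* on chromosome 5, followed in that order. LecRK-I.7 was at 15.5 FPKM in untreated and 8.59 FPKM in ATP-treated WS, and at 16.0 and 13.4 FPKM in untreated and ATP-treated *gpa1-2*. LecRK-I.8 was at 9.40, 6.43, 9.91 and 10.5 FPKM in the same order. For both genes ATP-treated WS was the lowest of the 4 libraries, as it was for *DORN1*. With *DORN1* they held 85.9% to 89.6% of the clade's summed FPKM. The order *DORN1*, LecRK-I.7, LecRK-I.8 was the same in every condition, and the counting intervals of neighbours in it overlapped only for LecRK-I.7 and LecRK-I.8 in ATP-treated WS.

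The other 7 genes were below 3 FPKM in every condition. On chromosome 5, LecRK-I.10 ranged from 1.45 FPKM in ATP-treated WS to 2.86 FPKM in untreated WS, and LecRK-I.11 from 0.481 FPKM in untreated *gpa1-2* to 1.59 FPKM in untreated WS. On chromosome 3, LecRK-I.3 was at 2.27 and 2.66 FPKM in untreated WS and *gpa1-2*, and at 0.507 and 0.553 FPKM after ATP. The ATP receptor gene LecRK-I.5 was at 1.99 FPKM in untreated and 0.775 FPKM in ATP-treated WS, and at 2.31 and 1.79 FPKM in *gpa1-2*. P2K2 transcript was therefore a small part of that of P2K1 in each library. The remaining genes LecRK-I.6, LecRK-I.1 and LecRK-I.2 stayed between 0.202 and 1.40 FPKM, and LecRK-I.4 between 0.452 and 0.754 FPKM. Among these 7 genes neighbours in the order of levels had overlapping intervals, except LecRK-I.5 and LecRK-I.6 in untreated *gpa1-2*, so their order is not settled by these reads.

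**Figure D1:**
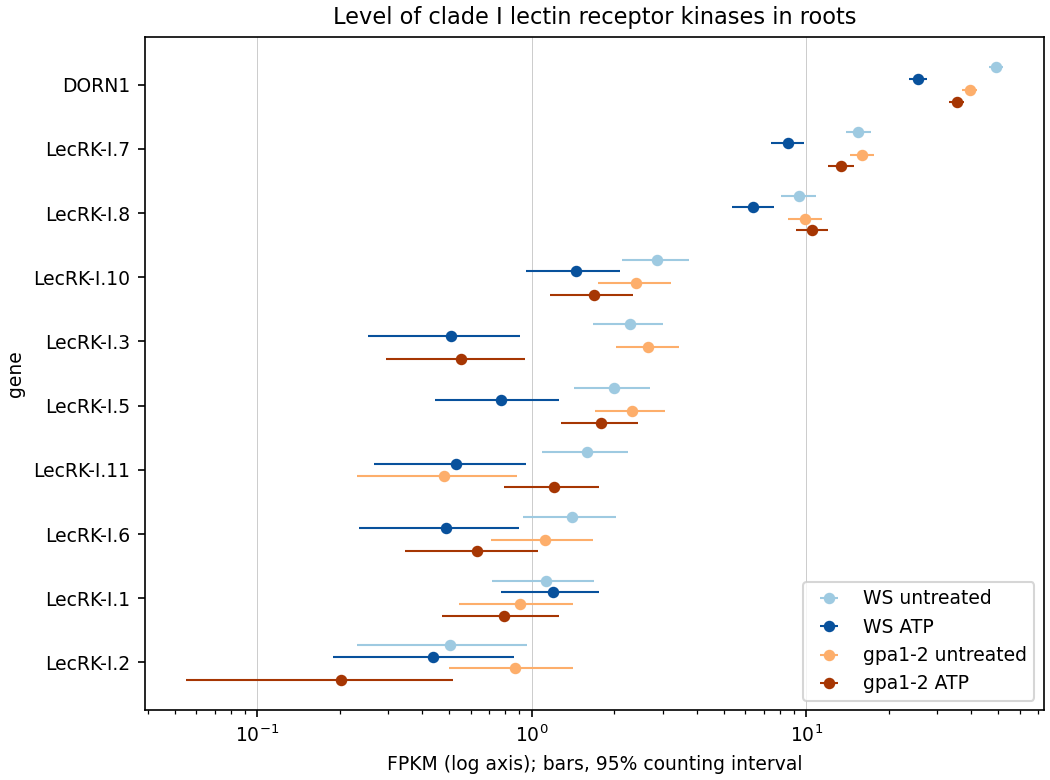
Level of the 10 clade I lectin receptor kinase genes in FPKM (log axis), with genes ordered by their level in untreated WS. Each point is the 1 value of a condition and bars are 95% counting intervals. *DORN1* lies between 25.6 and 49.2 FPKM, LecRK-I.7 and LecRK-I.8 between 6.43 and 16.0 FPKM, and the other 7 genes below 3 FPKM.

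To ask whether the ATP receptor genes respond to ATP, untreated and ATP-treated WS roots were compared. Levels of most clade I genes were lower in ATP-treated WS roots, *DORN1* among them. Its reads went from 1231 to 656, a ratio of 0.519 (interval 0.472 to 0.571). LecRK-I.7 went from 359 to 204 reads, a ratio of 0.554 (0.464 to 0.660), and LecRK-I.8 from 184 to 129 reads, a ratio of 0.683 (0.541 to 0.860). All 3 genes, those with the most reads, were thus lower after ATP, each with an interval of the ratio below 1. The other ATP receptor gene, LecRK-I.5, had 40 reads before and 16 after ATP, a ratio of 0.390 (0.204 to 0.712).

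For the response, log2(FPKM + 1) of untreated roots was subtracted from that of ATP-treated roots. A gene was kept if it reached 1 FPKM before or after ATP, and was called changed at a difference of 1 or more in size. The added 1 makes this difference smaller than the log2 ratio for genes with low FPKM. On this scale LecRK-I.3 was the only one of the 10 genes called down-regulated in WS, at -1.12, and none was called up-regulated. Over all 19901 genes kept, 4.28% were called down-regulated and 3.75% up-regulated. *DORN1* stood at -0.92, just short of the threshold, and 4.98% of all genes kept had a lower response. The others were LecRK-I.7 at -0.78, LecRK-I.11 at -0.76, LecRK-I.5 at -0.75, LecRK-I.6 at -0.69, LecRK-I.10 at -0.66 and LecRK-I.8 at -0.49. LecRK-I.1 was the exception at 0.04, with 23 and 25 reads. On the plain ratio of FPKM, a choice made after the data were seen, 4 genes were lower by 2-fold or more. These were LecRK-I.3, LecRK-I.5, LecRK-I.6 and LecRK-I.11, all kept through their untreated level only, which fixed the direction. None of the genes at 1 FPKM or more in both conditions differed by 2-fold. Among all genes kept, 10.4% differed by 2-fold or more in either direction.

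Of the 10 genes, 9 passed the filter in WS and LecRK-I.2 did not. The 5 genes with at least 1 FPKM in both conditions were *DORN1*, LecRK-I.7, LecRK-I.8, LecRK-I.10 and LecRK-I.1, and 4 of these had a response below 0. The other 4 (LecRK-I.3, LecRK-I.5, LecRK-I.6 and LecRK-I.11) passed through their untreated level only, so that a response below 0 was fixed by the filter and is no support. With no filter, 9 of the 10 genes were lower in ATP-treated WS, LecRK-I.2 with 9 and 8 reads, where 50.9% of all genes kept were lower. The interval of the ratio lay below 1 for 8 of the 10 genes. Of the 5 genes at 1 FPKM or more in both conditions, all 4 but LecRK-I.1 had such an interval. The share of all genes kept was 22.8%. A response of -0.5 or lower was found for 3 of the 5 genes at 1 FPKM or more in both conditions (*DORN1*, LecRK-I.7 and LecRK-I.10), and for 13.6% of all genes kept. The median response was -0.72 over the 10 genes with no filter and -0.75 over the 9 genes kept, and that of all genes kept was -0.01.

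Summed over the 10 genes, the clade held 85.9 FPKM in untreated and 46.0 FPKM in ATP-treated WS roots. *DORN1* did not carry this alone. The 9 genes without it went from 775 to 441 reads, a ratio of 0.555 (0.492 to 0.624), close to the 0.519 of *DORN1*. The 4 other genes of chromosome 5 went from 627 to 371 reads, a ratio of 0.577 (0.506 to 0.657), and the 5 genes of chromosome 3 from 148 to 70 reads, a ratio of 0.461 (0.342 to 0.617). Both clusters were lower, the smaller one with far fewer reads and a wider interval.

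The same comparison was made in *gpa1-2* to ask whether the difference also appears without Gα. *DORN1* had 1016 reads in untreated and 984 in ATP-treated *gpa1-2*, a ratio of 0.898 (0.822 to 0.981). LecRK-I.7 had 381 and 345 reads, a ratio of 0.840 (0.724 to 0.974), and LecRK-I.8 had 200 and 229 reads, a ratio of 1.06 (0.874 to 1.29). For the 3 abundant genes the ATP-treated and untreated libraries of *gpa1-2* thus lay closer to each other than those of WS. Responses on the log2(FPKM + 1) scale were -0.15 for *DORN1*, -0.24 for LecRK-I.7 and 0.08 for LecRK-I.8.

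LecRK-I.3 was again the only gene called down-regulated, at -1.24, and none was called up-regulated, against 3.78% and 3.6% of the 19865 genes kept in *gpa1-2*. Of the 10 genes, 8 were kept, 5 of them at 1 FPKM or more in both conditions. LecRK-I.3 and LecRK-I.6 passed through the untreated level only and LecRK-I.11 through the ATP-treated level only. The filter thus fixed the sign of their responses. LecRK-I.11 had a response of 0.57, with 10 reads before and 27 reads after ATP, a ratio of 2.50 (1.17 to 5.80). Responses of LecRK-I.10, LecRK-I.5 and LecRK-I.6 were -0.34, -0.25 and -0.38, with intervals of the ratio that included 1. LecRK-I.1 and LecRK-I.2 were not kept, with 19 and 18 reads for the former and 16 and 4 for the latter. With no filter, 8 of the 10 genes were lower after ATP, where 47.1% of all genes kept were lower. On the plain ratio 2 genes differed by 2-fold or more, LecRK-I.3 downward and LecRK-I.11 upward, each in the direction fixed by the filter. Among all genes kept, 10.2% differed by as much. The interval lay below 1 for 4 of the 10 genes (*DORN1*, LecRK-I.7, LecRK-I.3 and LecRK-I.2) and above 1 for LecRK-I.11. Of the 5 genes at 1 FPKM or more in both conditions, *DORN1* and LecRK-I.7 had an interval below 1. None of the 5 had an interval above 1. The shares of all genes kept were 22% below and 27% above. The median of the 8 genes was -0.24, and that of all genes kept was 0.03.

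**Figure D2:**
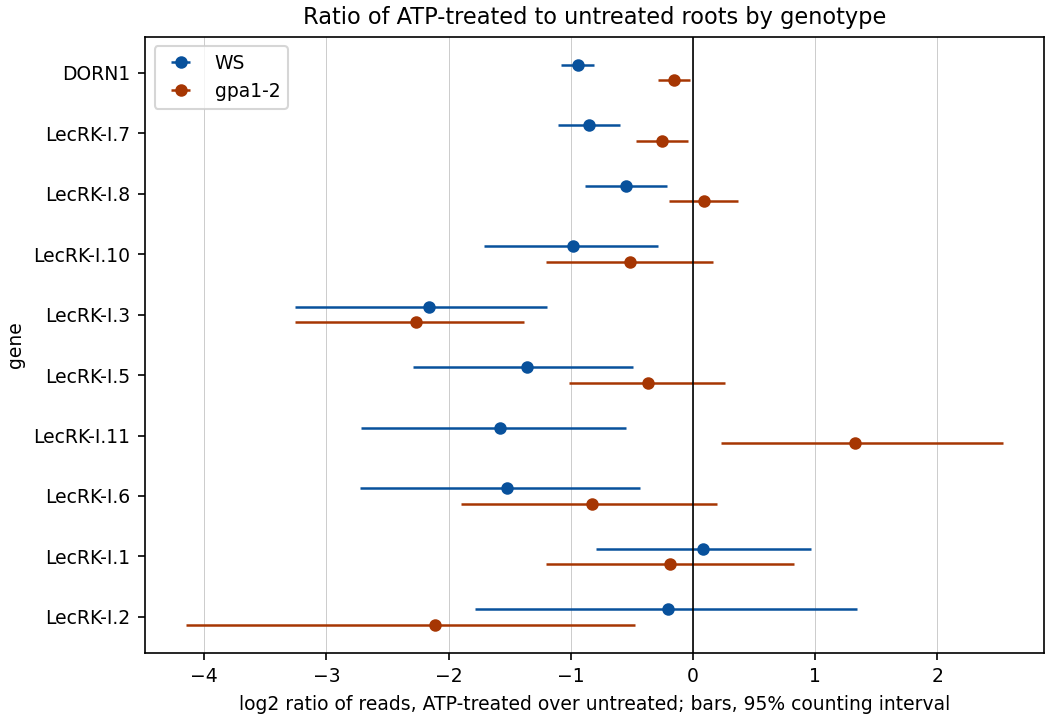
Log2 ratio of reads, ATP-treated over untreated, for each gene in WS and in *gpa1-2*, with no value added. Bars are 95% counting intervals and the vertical line marks no change. In WS the intervals of 8 genes lie left of the line, and in *gpa1-2* those of 4 genes lie left and that of LecRK-I.11 lies right of it.

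LecRK-I.3, which has been linked to salt and ethylene responses, was lower by the most of the genes kept, and in both genotypes. In WS it had 48 reads before and 11 after ATP, and in *gpa1-2* 58 before and 13 after, ratios of 0.223 (0.105 to 0.436) and 0.208 (0.104 to 0.384). The 2 genotypes did not separate, as the difference between their responses was 0.12 and the ratio of the ratios had an interval that included 1. Its level was small, at 2.66 FPKM or less in every library. In both genotypes it passed through the untreated level only, so that the direction was fixed by the filter. It also weighed on the sum of its cluster. The chromosome 3 genes went from 164 to 89 reads in *gpa1-2*, a ratio of 0.503 (0.384 to 0.655), and without LecRK-I.3 from 106 to 76 reads, a ratio of 0.665 (0.489 to 0.901). In WS they went from 100 to 59 reads without it, a ratio of 0.575 (0.410 to 0.801).

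**Figure D3:**
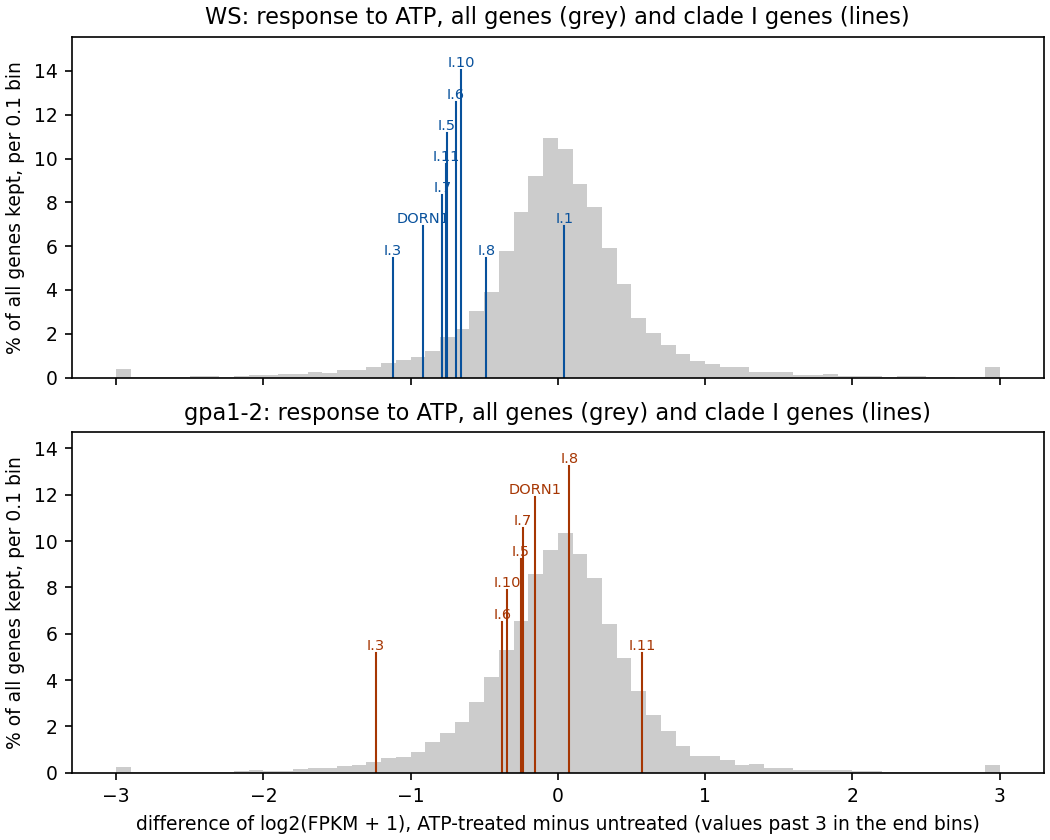
Distribution of the response to ATP over all genes kept in WS (top) and *gpa1-2* (bottom), in bins of 0.1 on the log2(FPKM + 1) scale, with lines at the clade I genes kept. The height of a line carries no value. In WS 8 of 9 lines stand between -1.12 and -0.49, and in *gpa1-2* 6 of 8 stand between -0.38 and 0.08, with LecRK-I.3 at -1.24 and LecRK-I.11 at 0.57. The filter fixed the side of 0 for 4 genes in WS, kept through their untreated level only. In *gpa1-2* it did so for 2 genes kept through the untreated level only and 1 kept through the ATP-treated level only.

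The responses of the 2 genotypes were then set against each other as the response in WS minus that in *gpa1-2*. *DORN1* differed by -0.77, LecRK-I.8 by -0.57, LecRK-I.7 by -0.55, LecRK-I.5 by -0.50, LecRK-I.10 by -0.31, LecRK-I.6 by -0.31 and LecRK-I.11 by -1.33. LecRK-I.3 and LecRK-I.1 differed by 0.12 and 0.13. LecRK-I.11 was the only one called, against 2.8% of the 20350 genes kept with a difference of -1 or lower. LecRK-I.11 was kept only through untreated WS and ATP-treated *gpa1-2*, so that a difference below 0, and responses of opposite sign in the 2 genotypes, were fixed by the filter. LecRK-I.8, at 1 FPKM or more in all 4 libraries, also had responses of opposite sign, as did 32.8% of the genes kept in both genotypes. Its response in *gpa1-2* became -0.0008 with reads taken over the total of each library, so the opposite sign depended on the scaling. Besides LecRK-I.11, the other 4 genes of chromosome 5 were at 1 FPKM or more in every library. All 4 had a difference below 0, as did 53.7% of all genes kept. A difference of -0.5 or lower was found for 5 of the 9 genes kept, LecRK-I.11 among them, and for 12.7% of all genes kept. The median was -0.50, or -0.41 over the 10 genes with no filter, and that of all genes kept was -0.03.

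As a ratio of the ratios, with an approximate interval from the 4 read numbers, *DORN1* gave 0.578 (0.508 to 0.658), LecRK-I.7 gave 0.660 (0.527 to 0.826) and LecRK-I.8 gave 0.644 (0.480 to 0.864). LecRK-I.11 gave 0.134 (0.0493 to 0.363). The intervals of these 4 genes lay below 1, that of LecRK-I.11 in the direction fixed by the filter. Of the 4 genes at 1 FPKM or more in every library, 3 had such an interval (*DORN1*, LecRK-I.7 and LecRK-I.8). The share was 20% of the genes kept that had reads in all 4 libraries. Intervals of the other 6 genes included 1, among them LecRK-I.5 with 0.504 (0.247 to 1.03). Without replicates it was not tested whether these differences exceed the spread between plants.

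To see in which libraries the genotypes parted, *gpa1-2* was compared with WS before and after ATP. In untreated roots none of the 10 genes was called, against 2.18% of all genes kept. *DORN1* was lower in *gpa1-2* with a ratio of 0.800 (0.736 to 0.870), while LecRK-I.7 had 1.03 (0.889 to 1.19) and LecRK-I.8 had 1.05 (0.859 to 1.29). LecRK-I.11 had 32 reads in WS and 10 in *gpa1-2*, a ratio of 0.303 (0.133 to 0.632). These 2 of the 10 genes had an interval below 1, and intervals of the other 8 genes included 1. LecRK-I.11 passed the filter through WS only, so that a lower level in *gpa1-2* was fixed by it. Of the 7 genes at 1 FPKM or more in both untreated libraries, *DORN1* alone had an interval below 1. The share of all genes kept was 16.2%. The 9 genes without *DORN1* had 775 reads in WS and 800 in *gpa1-2*, a ratio of 1.00 (0.906 to 1.11). Before ATP the genotypes thus differed in summed level mainly through *DORN1*.

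In ATP-treated roots no gene was called either, against 2.67% of all genes kept, but more genes were higher in *gpa1-2*. *DORN1* had a ratio of 1.38 (1.25 to 1.53), LecRK-I.7 of 1.56 (1.31 to 1.86) and LecRK-I.8 of 1.64 (1.31 to 2.05). LecRK-I.5 and LecRK-I.11, both with few reads, had 2.31 (1.26 to 4.41) and 2.26 (1.09 to 5.06). Both passed the filter through *gpa1-2* only, so that a higher level there was fixed by it. These 5 of the 10 genes had an interval above 1. Of the 4 genes at 1 FPKM or more in both ATP-treated libraries, 3 had such an interval (*DORN1*, LecRK-I.7 and LecRK-I.8). The share of all genes kept was 20%. The 10 genes together had 1097 reads in WS and 1708 in *gpa1-2*, a ratio of 1.44 (1.33 to 1.55). The comparisons within and between genotypes share libraries, so the high ratios here and the low ratios after ATP in WS rest on the same ATP-treated WS library.

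Genes of a cluster are close relatives, and how reads that match several of them were counted is not given in the sources used here. In the RefSeq annotation the gene models of *DORN1* and LecRK-I.10 overlap, as do those of LecRK-I.2 and LecRK-I.6 with other loci, so that some reads of these genes are uncertain. The level of LecRK-I.10 was at most 2.86 FPKM beside at least 25.6 FPKM for *DORN1*. On chromosome 3, 9 annotated loci lie between the 5 genes, 5 of them pseudogenes. Of the 7 listed in the tables only AT3G45400 reached 1 FPKM, and its response was 0.12 in WS and 0.07 in *gpa1-2*.

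Beyond clade I, 31 other L-type lectin receptor kinases were examined. In WS 20 were kept, with 1 called up-regulated, 3 called down-regulated and a median of -0.22, where 3.75% and 4.28% of all genes kept were called and their median was -0.01. In *gpa1-2* 21 were kept, with 1 called up-regulated, 4 called down-regulated and a median of -0.32, where 3.6% and 3.78% of all genes kept were called and their median was 0.03. The median of the difference between genotypes was 0.06 over 21 genes, where that of clade I was -0.50. LecRK-IV.3 (AT4G02410) and LecRK-VII.1 (AT4G04960) fell in both genotypes, by 1.22 and 1.25 and by 1.13 and 1.49 on the log2(FPKM + 1) scale. LecRK-V.8 (AT3G59750) had a response of -1.04 in WS and -0.71 in *gpa1-2*.

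LecRK-VII.2 (AT4G28350) rose in WS from 9.95 to 26.1 FPKM, a response of 1.31, and had 20.5 and 19.2 FPKM in *gpa1-2*. LecRK-IX.2 (AT5G65600), which takes part in resistance to *Phytophthora*, had -0.23 in WS and -1.46 in *gpa1-2*. In WS it passed the filter through its untreated level only, which fixed the sign there. LecRK-V.7 (AT3G59740) had 0.42 and 1.06. LecRK-V.9 (AT4G29050) was not kept in WS and had -1.18 in *gpa1-2*, as 1 of the 4 called down-regulated there. It passed the filter through its untreated level only, at 2.36 FPKM before and 0.482 FPKM after ATP, which fixed the direction. LecRK-V.2 (AT1G70130) had 79 and 39 reads in WS and 39 and 85 reads in *gpa1-2*, responses of -0.78 and 0.74. It was named for its difference of -1.52 after its values were seen. Of the 21 genes kept, 1 was called for a difference of -1 or lower and 3 for 1 or higher. These 3 were LecRK-VII.2 at 1.39, LecRK-IX.2 at 1.23 and LecRK-V.9 at 1.00. Over all genes kept, 5.83% were called in either direction.

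**Figure D4:**
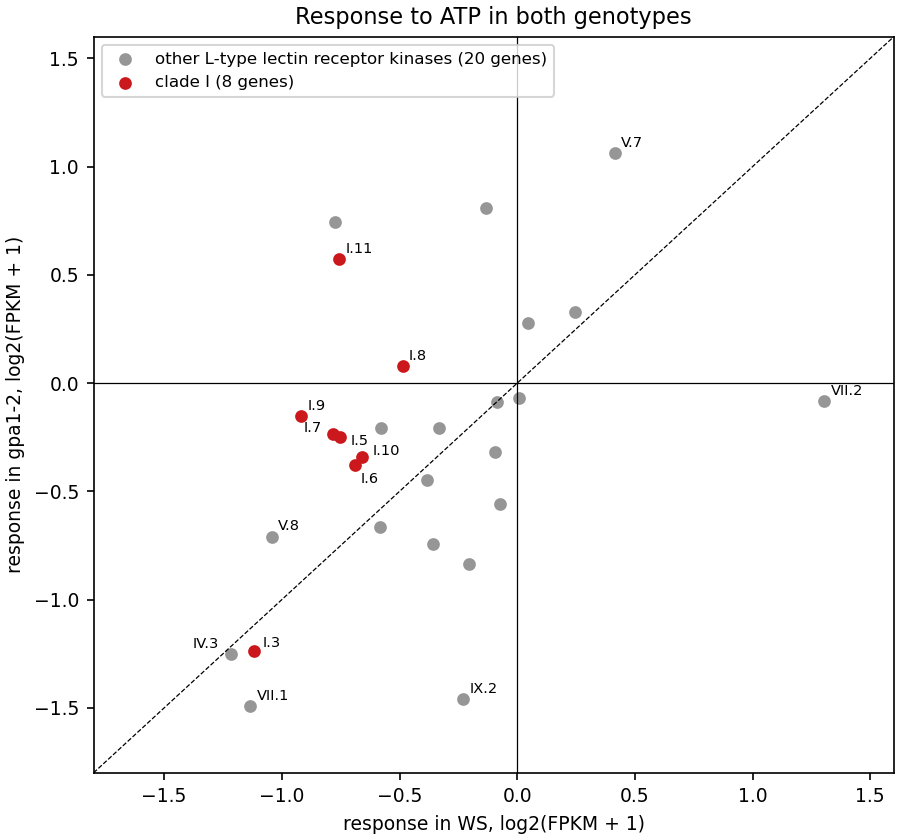
Response to ATP in WS (x axis) and *gpa1-2* (y axis) on the log2(FPKM + 1) scale for 8 clade I genes and 20 other L-type lectin receptor kinases kept in both genotypes; I.9 is *DORN1*. The dashed line marks equal responses. Of the clade I genes 7 lie above the dashed line and left of 0 in WS, and LecRK-I.3 lies near the line at -1.12 and -1.24. The filter fixed the place left of 0 for 4 clade I genes kept in WS through their untreated level only, LecRK-I.3 among them. For LecRK-I.11 it also fixed the side of the dashed line. Of all genes kept, 50.9% had a response below 0 in WS, and 53.7% had a lower response in WS than in *gpa1-2*.

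Genes that act with DORN1 in eATP signalling were described from a list of 11, all of which were kept. In each genotype 2 were called down-regulated and none up-regulated, with a median of -0.03 in WS and -0.17 in *gpa1-2*. Of all genes kept, 4.28% in WS and 3.78% in *gpa1-2* were called down-regulated. The 2 genes were the same in both genotypes. *MPK3* (AT3G45640), a mitogen-activated protein kinase of stress signalling, had 91.1 FPKM before and 22.3 FPKM after ATP in WS, and 68.5 FPKM before and 29.8 FPKM after it in *gpa1-2*. Its responses were -1.99 and -1.17. *MYC2* (AT1G32640), a transcription factor of the jasmonate response, had 274 FPKM before and 74.4 FPKM after ATP in WS, and 217 FPKM before and 80.5 FPKM after it in *gpa1-2*. Its responses were -1.87 and -1.42. *RBOHD* (AT5G47910), an NADPH oxidase that DORN1 phosphorylates, was not called and had responses of -0.44 and -0.68. The apyrase gene *APY1* (AT3G04080) and *MPK6* (AT2G43790) were not called either and were higher after ATP. Their responses were 0.34 and 0.41 for *APY1* and 0.22 in each genotype for *MPK6*. Of the 11 genes, 8 in WS and 6 in *gpa1-2* had a response below 0, as did 50.9% and 47.1% of all genes kept.

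The genes most like *DORN1* over the 4 conditions were sought among 12139 genes with at least 100 reads in each library, by the distance between their log2 levels after the mean of each gene was taken off. The nearest were AT3G61980, which encodes a Kazal-type serine protease inhibitor, at a distance of 0.044, the CBL-interacting kinase gene *CIPK1* (AT3G17510) at 0.057, and the sphingolipid synthesis gene *AtIPCS1* (AT3G54020) at 0.060. AT3G61980 was at 41.0 and 21.3 FPKM in untreated and ATP-treated WS and at 32.3 and 28.3 FPKM in *gpa1-2*. *CIPK1* was at 85.1 and 45.4 FPKM in WS and at 71.8 and 63.9 FPKM in *gpa1-2*. ATP-treated WS was the lowest library in both, as in *DORN1*, which their choice by likeness to *DORN1* fixed in advance. In all, 59 genes lay within a distance of 0.2 of *DORN1*, and as only 4 values per gene were compared the likeness is a description.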

How the data were processed

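The authors deposited 2 tables, each with gene counts and FPKM for untreated and ATP-treated roots of 1 genotype. The deposited counts are a scaled signal and not raw counts, and the deposited FPKM values carry the same scaling. Aligner, build and use of strand are not given in the sources used here. Per the labels MAS5 is named as a tool, which belongs to arrays. The tables also hold the authors' p-value, FDR, fold change and marks of regulated genes, which were not used for any result. All 8 value columns were used, so that 0 columns with values of a sample remained aside. Columns were assigned to conditions from the table names, the headers and the number of genes marked in each direction.

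Reads were recovered from the steps of low deposited counts, and 98.9% to 99.3% of values of up to 20 reads came out whole within 0.1 of a read. Each column held 2 nearly equal steps. Reads in these 2 parts were divided too evenly to serve as replicates, as 78.2% to 86.4% of genes with 16 reads were divided 8 and 8. Intervals on ratios are exact 95% Clopper-Pearson intervals given the total, and those on FPKM are exact Poisson intervals. Differences of log2(FPKM + 1) were computed for genes that reached 1 FPKM in a condition compared (any of 4 for the difference between responses) and called at 1. As 1 value per condition was at hand, no test and no p-value is given.

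The genes named are the 10 clade I genes, LecRK-I.4, *GPA1*, the called genes of 31 other L-type lectin receptor kinases and of 11 eATP signalling genes, and the 3 genes nearest to *DORN1*. LecRK-V.2, AT3G45400, *RBOHD*, *APY1* and *MPK6* were chosen after their values were seen. Members and lists were chosen with earlier results of these data known. Names came from the tables and from RefSeq (TAIR10.1), which matched 32797 of 33544 identifiers and all 10 members. The files name no build, so no coordinates are given. Alternatives were other pseudocounts, filters, scalings and thresholds, and the plain ratio of FPKM was added after the data were seen. The calling of changed genes was tested on simulated data. The scripts ran on scipy 1.17.1, pandas 2.3.3 and numpy 2.4.6 under Python 3.11.15, with figures drawn in matplotlib 3.10.9.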

Additional observations from a re-analysis of the deposited data

Results flagged for a closer look

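LecRK-I.11 and LecRK-I.8 had responses of opposite sign in the 2 genotypes. LecRK-I.11 was at -0.76 in WS and 0.57 in *gpa1-2*, a difference of -1.33, with 10 to 32 reads per library. It passed the filter only through untreated WS and ATP-treated *gpa1-2*, which fixed both signs, so its opposite signs are no support for a difference. LecRK-I.8 was at -0.49 in WS and 0.08 in *gpa1-2*, a difference of -0.57, and the interval of its ratio in *gpa1-2* included no change. With each library's reads taken over its total, its response in *gpa1-2* was -0.0008, so the opposite sign was lost. Opposite signs were found for 32.8% of the 19416 genes kept in both genotypes. With 1 value per condition the difference between genotypes was not tested.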

How the results depend on the processing

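The number of genes called moved with the threshold and with the value added before taking logs. In WS the 1 gene called became 4 with 0.1 added, with the ratio of read shares (each library's reads over its total) and with the plain ratio of FPKM, 7 at a threshold of 0.5, and 0 with 5 added, at a threshold of 2 or with at least 10 FPKM. In *gpa1-2* the 1 gene became 2 with 0.1 added, the ratio of read shares, the plain ratio or a threshold of 0.5, and 0 with 5 added, a threshold of 2 or at least 10 FPKM. Between genotypes in untreated roots 0 became 1 with 0.1 added, a threshold of 0.5, the ratio of read shares or the plain ratio. In ATP-treated roots 0 became 2 with 0.1 added, the ratio of read shares or the plain ratio and 4 at a threshold of 0.5. The 1 gene whose response differed became 5 at a threshold of 0.5, and 0 with 5 added, a threshold of 2 or at least 10 FPKM. The median response stayed below 0 under each alternative tried, from -0.998 to -0.29 in WS and from -0.40 to -0.13 in *gpa1-2*. Of 119 alternative values of single genes, 118 kept their sign. Another added value or the plain ratio of FPKM cannot change the sign of a single gene, so part of this count was fixed in advance. The 1 that changed was LecRK-I.8 in *gpa1-2*, at 0.08 in the main setting and -0.0008 with the ratio of read shares. Scalings shifted the median of all genes by at most 0.084. Depth limits 7 of the 10 genes, which had 58 reads or fewer in each library, and only *DORN1*, LecRK-I.7, LecRK-I.8 and LecRK-I.10 had at least 20 reads in all 4. No paired analysis was possible because the tables hold a single value per condition and their columns carry no replicate number.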
